A study of Mus musculus with 8 samples.

Results

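The synaptic vesicle and release machinery was followed through 34 genes, chosen by symbol for their known place in the vesicle cycle, out of 32726 gene identifiers in the count table. All 34 matched an identifier and all 34 passed the filter on low counts. They were read by function as 16 genes of the vesicle, 8 of the SNARE (membrane fusion) machinery, 6 of the active zone and 4 of endocytosis. Poly-A RNA of neurons in culture was sequenced from mice lacking Nuak1 (KO, 4 libraries) and from their WT counterparts (4 libraries), to ask which transcripts depend on NUAK1, a kinase of the AMPK-related family that acts in growing axons. The neurons came from cortices of embryos on a C57Bl/6JRj background and were grown without serum for 5 days in vitro, as the methods give it, whereas the tissue label of every library reads cortex or hippocampus. The KO animals carry a constitutive null allele with a LacZ insertion in every cell and die at birth, so the cultures hold the cells of whole knockout embryos, and the WT cultures carry no transgene or treatment. The labels add a sequencing lane, A for KO1, KO4, WT1 and WT3 and B for the others, and a strain label that is not explained, which is BJ for KO1 to KO3, BK for KO4, WT2 and WT4, BO for WT1 and BQ for WT3.

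A presynaptic terminal stores neurotransmitter in small vesicles, loads it through transporters such as the vesicular glutamate transporters, and tethers the vesicles with synapsins. At the active zone, scaffolds and priming factors bring a vesicle to the membrane, where synaptobrevin on the vesicle zips together with syntaxin and SNAP25 on the membrane, complexin clamps the complex, and synaptotagmin triggers fusion when calcium enters. NSF and its SNAP adaptors then take the SNARE complex apart, and dynamin, amphiphysin, synaptojanin and endophilin recover the membrane. Many of these transcripts are present in cortical neurons well before synapses are functional, when the same proteins take part in axon growth and in the first boutons.

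The promoters of 4 members are shown, because Pclo and Slc17a7 had the smallest p values of their functional groups between genotypes, Stx1a varied most between libraries, and Syn1 carries sequences known from neuronal promoters. Each window runs from 250 bases before to 50 bases after an annotated start, written 5′ to 3′ along the gene, and was taken from RefSeq on GRCm38.p6. Capitals mark TGACG (the core of the cyclic AMP response element, CRE), GGGCGG (the GC box bound by SP1-type factors), each on either strand, and TTCAGCACC (the left arm of the RE1 element bound by REST). The windows lie at chr5:14514668-14514967 on the plus strand for Pclo, chr7:45163671-45163970 on the plus strand for Slc17a7, chrX:20920869-20921168 on the minus strand for Syn1 and chr5:135023232-135023531 on the plus strand for Stx1a.
Pclo: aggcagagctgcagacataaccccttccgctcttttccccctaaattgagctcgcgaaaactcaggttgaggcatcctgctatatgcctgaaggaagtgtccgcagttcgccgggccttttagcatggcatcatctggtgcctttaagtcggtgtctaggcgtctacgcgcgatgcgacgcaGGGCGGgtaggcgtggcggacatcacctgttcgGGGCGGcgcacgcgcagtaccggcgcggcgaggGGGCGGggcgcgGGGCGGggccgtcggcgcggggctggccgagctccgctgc
Slc17a7: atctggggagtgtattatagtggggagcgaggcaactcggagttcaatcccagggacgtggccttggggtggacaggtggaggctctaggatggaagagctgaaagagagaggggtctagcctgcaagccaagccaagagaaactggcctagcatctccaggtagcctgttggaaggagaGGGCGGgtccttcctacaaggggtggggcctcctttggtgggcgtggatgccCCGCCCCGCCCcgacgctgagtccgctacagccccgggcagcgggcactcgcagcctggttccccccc
Syn1: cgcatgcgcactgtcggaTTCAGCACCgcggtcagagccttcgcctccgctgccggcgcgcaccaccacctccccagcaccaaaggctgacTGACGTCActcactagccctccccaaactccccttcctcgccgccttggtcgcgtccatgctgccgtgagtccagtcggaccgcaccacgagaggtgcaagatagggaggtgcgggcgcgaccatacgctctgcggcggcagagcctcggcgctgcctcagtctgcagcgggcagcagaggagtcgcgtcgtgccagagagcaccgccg
Stx1a: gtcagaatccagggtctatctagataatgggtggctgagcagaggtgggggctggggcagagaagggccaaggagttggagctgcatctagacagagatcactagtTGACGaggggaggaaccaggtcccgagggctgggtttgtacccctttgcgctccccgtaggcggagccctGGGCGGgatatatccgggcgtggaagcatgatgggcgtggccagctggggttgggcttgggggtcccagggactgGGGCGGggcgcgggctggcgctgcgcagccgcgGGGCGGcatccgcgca

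The Pclo window held 4 GC boxes and the Slc17a7 window 3, and neither held a CRE core. The Stx1a window held 3 GC boxes and 1 CRE core. The Syn1 window held no GC box, and its TGACGTCA counts as 2 CRE cores because the palindrome reads the same on both strands. Among 39 windows of 28 members, 59% held GGGCGG, against 35.7% of all 32841 promoter windows, and the median GC content was 61.3%, against 52.7% over all windows. TATAAA was in 5.13% of the members' windows and in 13.6% of all. TGACG was in 23.1% of the members' windows and 20.8% of all, whereas TGACGTCA was in 5.13% (Syn1 and Sh3gl2) and 1.79%. TTCAGCACC was in 5.13% of the members' windows (Syn1 and Unc13a) and 0.371% of all, and GGACAG, the right arm of RE1, was in 25.6% and 22.2%. These are matches of letters on both strands, and binding was not measured. The windows taken as comparison include genes that did not pass the filter on low counts, whereas every member passed it. Syn3, Syt4, Syt7, Vamp2, Snap25 and Rims2 were matched to no window.

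Total counts ranged from 31247078 to 67155004 per library, and the members together took 0.887% to 0.988% of them. The targeted gene separated the genotypes, with 86 to 102 Nuak1 counts in the KO libraries and 1612 to 4598 in the WT libraries, a log2 fold change of -4.89 ± 0.133 (SE, n = 4 per genotype). KO1 and WT1 stood apart from the other 6 libraries, with values of -0.558 and -0.621 on the surrogate variable (a per-library score of variation unrelated to genotype that was included in the model), whereas the others lay between 0.048 and 0.392. No library duplicated another. Neuronal markers were present in every library: the 9 pan-neuronal markers with an identifier (such as Mapt, Tubb3 and Rbfox3) summed to 3493 to 5726 CPM (counts of a gene per 1000000 counts of its library) and the 8 cortical glutamatergic markers to 1622 to 2340 CPM, and 10 endothelial and fibroblast markers to 6.92 to 36.0 CPM. The cultures also held glial transcripts at levels like those of the glutamatergic list or below, with 1068 to 1986 CPM for 10 astrocyte markers, which in KO3 exceeded the glutamatergic sum of 1643 CPM, and 508 to 631 CPM for 10 markers of the oligodendrocyte lineage.

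No member passed the threshold between genotypes, whichever function it served. With edgeR's quasi-likelihood test and Benjamini-Hochberg (BH) adjustment over 16272 tested genes, 0 of 34 members were called at an adjusted p under 0.05, against 8 of all tested genes (0.0492%; 6 lower in KO, 0.0369%, and 2 higher, 0.0123%). At an unadjusted p under 0.05, 3 members passed, all lower in KO: Pclo, Slc17a7 and Syn3. None of the 3 did so without the surrogate variable, with lane or strain label as a term in its place, or in lane A alone. DESeq2 called 1 member (Pclo) and limma-voom 0. The 3 are 8.82% of the members, against 5.75% of all tested genes lower in KO, and none was higher, against 4.87% of all tested genes (10.6% in both directions). Fitted log2 fold changes (KO over WT) were below 0 in 19 members and above 0 in 15, whereas 46.2% of all tested genes were below 0. Their median was -0.03, against 0.01 over all tested genes, and they ran from -0.33 in Sv2b to 0.21 in Cplx2, both named after their values were seen. Neither the count nor the sign of the median held in all alternatives: 15 members were below 0 without WT1 or without WT3, 13 with the strain label in the model and 24 in lane A alone, and the median was 0.037 without WT1 and 0.0558 with the strain label. CPM overlapped between the genotypes for each of the 34 members, whereas 2.4% of all tested genes did not overlap (0.86% lower in KO and 1.54% higher).

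The precision of these estimates depended on the surrogate variable. With it, the median SE of a member was 0.0911 on the log2 scale, against 0.108 over all tested genes, and the 95% interval lay within 0.5 on either side of 0 for 26 members and within 1 for 33. Without it, the median SE was 0.144, against 0.198 over all tested genes, and the interval lay within 0.5 for 20 members and within 1 for 32. The member outside 1 with the surrogate variable was Slc17a6, whose interval ran from -1.03 to 0.64. The p values measure the spread between these cultures, which the study describes as coming from 4 animals per genotype. In whole cultures, fewer cells of a type and less RNA per cell cannot be told apart.

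**Figure D1:**
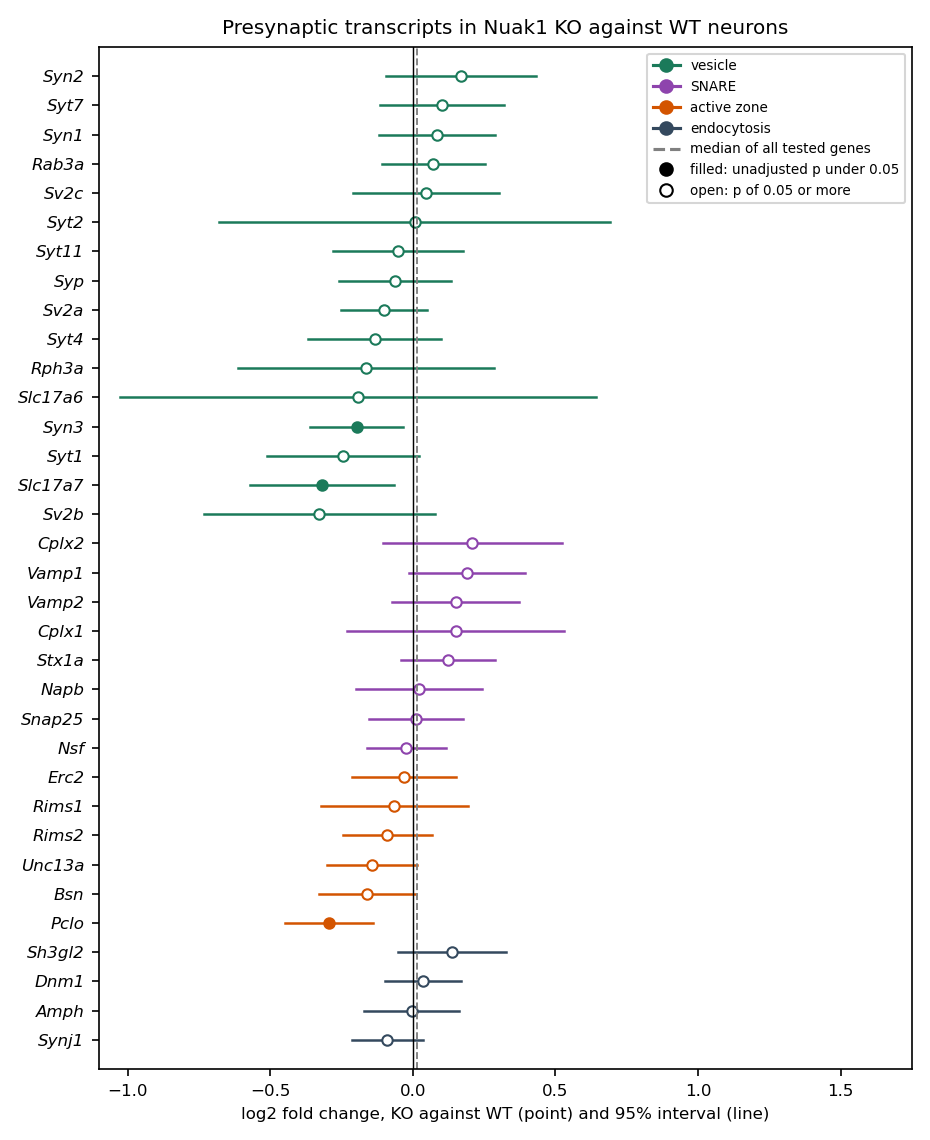
Log2 fold change of each of the 34 transcripts in KO against WT neurons (points) with its 95% interval (lines), ordered within functional groups marked by colour. Filled points have an unadjusted p under 0.05, and the dashed line is the median of all tested genes. All intervals but those of Pclo, Slc17a7 and Syn3 cross 0, and the active zone estimates all sit on the left while 7 of 8 in the SNARE group sit on the right.

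The 6 active zone scaffolds and priming factors all had a log2 fold change below 0, against 46.2% of all tested genes, with a median of -0.12 and a range of -0.29 to -0.03, and 1 of 6 had an unadjusted p under 0.05. The count of 6 fell to 5 without the pair KO1 and WT1 or without WT1 alone. It was 4 in lane B alone, with a second surrogate variable or without WT3. With the strain label as a term, which compares KO4 with WT2 and WT4, it was 3. It was 6 under the other size factors.

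Pclo (ENSMUSG00000061601, chr5:14514906-14863465) encodes Piccolo, a very large scaffold that lines the active zone. Its level was 439.7, 371, 371 and 347 CPM in KO1 to KO4 and 581, 395, 431 and 416 CPM in WT1 to WT4. KO2, KO3 and KO4 lay below every WT library, whereas KO1 lay above WT2, WT3 and WT4 and below WT1, so the genotypes overlapped. The 4 KO libraries averaged 382 ± 39.9 CPM and the 4 WT libraries 456 ± 84.8 CPM (mean ± SD). The log2 fold change was -0.29 ± 0.0691 (SE; 95% interval -0.45 to -0.14; edgeR unadjusted p = 0.00174, adjusted p = 0.248), the 114th smallest p of all tested genes. Pclo was below WT in 21 of 21 alternative fits and had an unadjusted p under 0.05 in 17. These fits reuse the same libraries or part of them, so they are not independent of each other. The log2 fold change of Pclo was -0.39 in lane A alone and -0.19 in lane B alone, and -0.22 without KO1 and WT1. DESeq2 called it (adjusted p = 0.0166) among 168 genes, 1.03% of those tested, while its adjusted p was 0.0854 or more in the other alternatives, with the lowest of these without WT3.

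Bassoon, the companion scaffold of Piccolo encoded by Bsn, measured 199, 249.8, 285 and 269 CPM in KO1 to KO4 and 234, 297, 307 and 258 CPM in WT1 to WT4. KO1 and WT1 were the lowest libraries, the reverse of Pclo, and the genotypes overlapped. Its edgeR adjusted p was 0.495. Unc13a, which encodes the priming factor Munc13-1, measured 294 to 381 CPM in KO and 329 to 438 in WT (adjusted p = 0.511). The RIM proteins, which link vesicles to calcium channels, overlapped between the genotypes: Rims1 measured 109 to 127 CPM in KO and 101 to 147 in WT, and Rims2 43.7 to 55.4 in KO and 49.9 to 59.0 in WT. Erc2, which encodes the scaffold CAST, measured 217 to 238 CPM in KO and 197 to 253 in WT. For each of these the edgeR adjusted p was at least 0.495.

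On the vesicle, 10 of 16 members had a log2 fold change below 0 and 6 above, with a median of -0.08 and a range of -0.33 to 0.17. The median ran from -0.119 to -0.0512 with each library left out in turn. It was -0.121 in lane A alone and -0.0211 in lane B alone. Slc17a7 and Syn3 had an unadjusted p under 0.05 and none was called.

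Slc17a7 (ENSMUSG00000070570, chr7:45163921-45176139) encodes VGLUT1, the transporter that fills vesicles with glutamate in most cortical excitatory neurons. It measured 65.4, 93.8, 121 and 112 CPM in KO1 to KO4 and 104, 120.5, 139 and 109 CPM in WT1 to WT4. KO1 was the lowest library and KO2 the next lowest, WT3 was the highest, and KO3 and KO4 lay among the WT libraries. The 4 KO libraries averaged 97.9 ± 24.4 CPM and the 4 WT libraries 118 ± 15.4 CPM (mean ± SD), a log2 fold change of -0.32 ± 0.112 (SE; 95% interval -0.57 to -0.07; edgeR unadjusted p = 0.0185, adjusted p = 0.39). The estimate was below 0 in 21 of 21 alternatives. It ran from -0.47 in lane A alone to -0.06 with strain label as a term, which compares KO4 with WT2 and WT4. It was -0.17 in lane B alone and -0.21 without KO1 and WT1. Without WT1 alone it was -0.12, and without KO1 alone -0.22. The unadjusted p was under 0.05 in 12 of the 21, and the adjusted p was 0.183 or more in all of them.

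The other vesicular glutamate transporter, Slc17a6 (ENSMUSG00000030500, chr7:51621830-51671126; VGLUT2, typical of subcortical and early cortical neurons), gave the widest interval among the members and was picked out after its values were seen. It measured 22.6, 20.9, 20.2 and 15.2 CPM in KO1 to KO4 and 17.7, 16.4, 44.2 and 12.8 CPM in WT1 to WT4. WT3 held more than any other library, and the remaining WT libraries lay below KO1, KO2 and KO3. The 4 KO libraries averaged 19.7 ± 3.19 CPM and the 4 WT libraries 22.8 ± 14.4 CPM (mean ± SD), and the log2 fold change was -0.19 with all libraries (edgeR adjusted p = 0.878). Without WT3 it was 0.41 with an unadjusted p under 0.05, the opposite sign. WT3 was the highest library for 15 of 34 members, against 21.5% of all tested genes, and WT1 for 8, against 16.9%. Each of these 2 libraries is alone in its strain label, BQ for WT3 and BO for WT1.

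Synapsins coat vesicles and hold them in clusters. Syn3 (ENSMUSG00000059602, chr10:86048746-86498926), the synapsin best known from early development, measured 32.2, 43.5, 44.2 and 54.9 CPM in KO1 to KO4 and 34.2, 52.4, 59.8 and 53.1 CPM in WT1 to WT4. KO1 and WT1 were the lowest libraries, and KO4 exceeded all WT libraries but WT3. The 4 KO libraries averaged 43.7 ± 9.28 CPM and the 4 WT libraries 49.9 ± 10.99 CPM (mean ± SD), a log2 fold change of -0.20 ± 0.0727 (SE; 95% interval -0.36 to -0.03; edgeR unadjusted p = 0.0226, adjusted p = 0.402). The estimate was -0.12 in lane A alone, -0.33 in lane B alone and -0.24 without KO1 and WT1. It was 0.04 with strain label as a term, which compares KO4 with WT2 and WT4. The unadjusted p was under 0.05 in 12 of 21 alternatives. Timp3 lies on the opposite strand over 14.1% of the exonic bases of Syn3, and the strand setting of the counting was not stated. If strand was ignored, union mode would leave reads over that stretch uncounted.

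Syn1 and Syn2 are the synapsins of mature terminals. Syn1 measured 226, 178, 178 and 185 CPM in KO1 to KO4 and 195, 153, 193 and 159 CPM in WT1 to WT4. Syn2 measured 132, 159, 167 and 151 CPM in KO1 to KO4 and 165, 125, 110.0 and 132 CPM in WT1 to WT4. Both overlapped between genotypes, with adjusted p values of 0.773 and 0.633. Syn1 and Syp are X-linked, and the libraries differed in the transcripts of the sex chromosomes. Xist was at 1.82 CPM in KO3 and 2.76 CPM in WT4, against 2754 to 5014 CPM in the other 6. Ddx3y was at 80.4 CPM in KO3 and 85.8 CPM in WT4. By these transcripts KO3 and WT4 read as male and the other 6 as female. Syn1 in KO3 and in WT4 lay within the range of the other libraries of its genotype, whereas Syp was highest of the KO libraries in KO3 and lowest of the WT libraries in WT4.

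SV2 proteins are vesicle glycoproteins that tune release. Sv2b (ENSMUSG00000053025, chr7:75114894-75309262) had the lowest estimate of all members and was picked out after its values were seen. It measured 219, 236, 237 and 221 CPM in KO1 to KO4 and 426, 292, 177 and 258 CPM in WT1 to WT4. The KO libraries lay close together, with a mean of 228 ± 9.70 CPM, whereas the WT libraries spread on both sides of them, with a mean of 288 ± 104 CPM (SD, n = 4 each). The log2 fold change was -0.33 ± 0.177 (SE; edgeR adjusted p = 0.545), -0.16 without WT1 and -0.50 without WT3. Sv2a, the form present in nearly all synapses, measured 326 to 502 CPM in KO and 344 to 539 in WT, and Sv2c 10.4 to 15.8 in KO and 10.3 to 14.6 in WT.

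Synaptotagmins carry the calcium sensors of release. Syt1, the sensor of fast release in the forebrain, measured 915, 668, 716 and 556 CPM in KO1 to KO4 and 1016, 737, 843 and 647 CPM in WT1 to WT4. WT1 and KO1 were the highest libraries, KO4 the lowest, and the genotypes overlapped (edgeR adjusted p = 0.501). Syt2, the fast sensor of hindbrain and spinal synapses, was barely present, at 34 to 104 counts or 0.755 to 1.95 CPM. Its 95% interval ran from -0.68 to 0.69. Syt7, a slow sensor of release, measured 276 to 396 CPM in KO and 252 to 381 in WT. The atypical forms Syt4 and Syt11, which do not act as fast calcium sensors, measured 1157 to 1715 CPM in KO and 1230 to 1621 in WT for Syt4, and 823 to 963 in KO and 792 to 1035 in WT for Syt11. No synaptotagmin had an unadjusted p under 0.05 in the reported edgeR fit, with the filter, all libraries and 1 surrogate variable. Syt1, with a log2 fold change of -0.25, was under it in 4 of 21 alternatives, with the replicate number as a block, without the filter, with DESeq2 and without WT4, and its adjusted p was 0.256 or more in each of them.

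Synaptophysin, an abundant membrane protein of the vesicle and a usual marker of boutons, was encoded by Syp at 612, 638, 692 and 541 CPM in KO1 to KO4 and 605, 612, 715 and 599 CPM in WT1 to WT4. The genotypes overlapped, and the 95% interval of the log2 fold change ran from -0.26 to 0.14. Rab3a, the GTPase that attaches vesicles to the active zone, measured 63.4, 106, 129 and 141 CPM in KO1 to KO4 and 55.8, 103, 165 and 105 CPM in WT1 to WT4. KO1 and WT1 were the lowest and WT3 the highest, and the WT libraries enclosed the KO libraries. Its effector rabphilin, encoded by Rph3a, measured 41.5 to 76.7 CPM in KO and 61.8 to 82.2 in WT, with KO1 as the lowest library and WT1 as the highest, so that for Rph3a the pair did not deviate together.

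**Figure D2:**
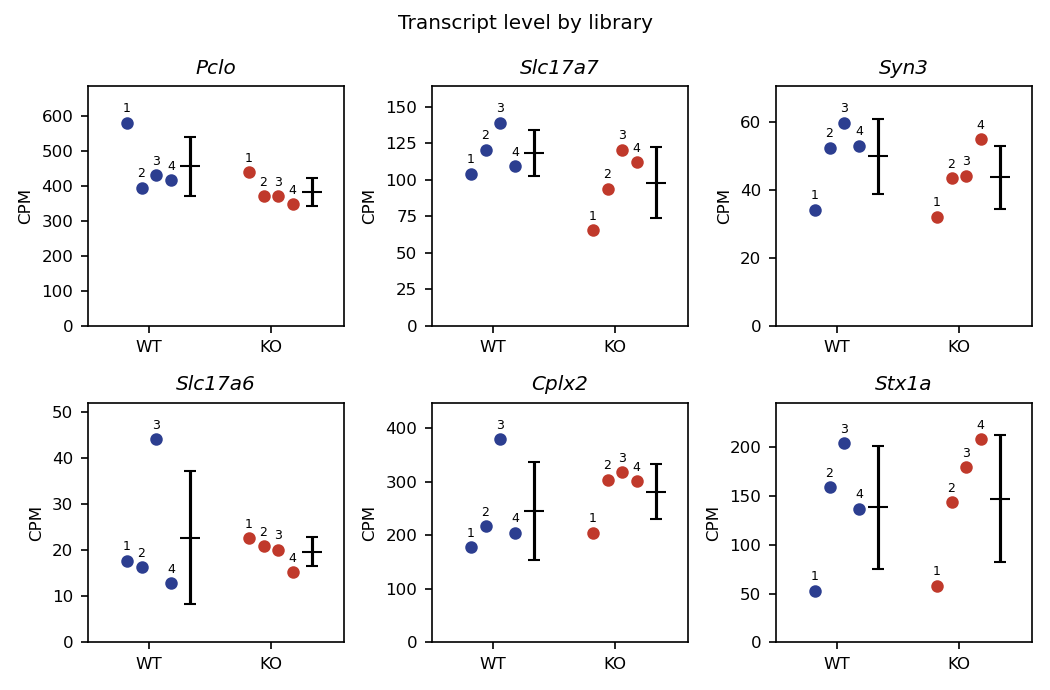
CPM of Pclo, Slc17a7, Syn3, Slc17a6, Cplx2 and Stx1a in each library, with replicate numbers above the points and the mean ± SD (n = 4) beside them. The genotypes overlap in every panel, WT3 lies far above the other WT libraries for Slc17a6 and Cplx2, and KO1 and WT1 lie at the bottom for Stx1a.

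The SNARE group leaned the other way from the active zone. Of 8 members, 7 had a log2 fold change above 0, with a median of 0.14 and a range of -0.02 to 0.21, and none had an unadjusted p under 0.05. In lane A alone only 2 of the 8 were above 0, with a median of -0.05, whereas in lane B alone all 8 were, with a median of 0.21. The count was 5 without WT2, and the median ran from 0.0738 to 0.188 with each library left out in turn. No cause of the difference between lanes was tested.

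Among the SNARE proteins themselves, Vamp2, the synaptobrevin of forebrain vesicles, measured 399, 447, 433 and 417 CPM in KO1 to KO4 and 339, 317, 483 and 366 CPM in WT1 to WT4. The 4 KO libraries lay above WT1, WT2 and WT4 and below WT3. Vamp1, the synaptobrevin of spinal and brainstem neurons, measured 11.9 to 14.0 CPM in KO and 10.2 to 12.5 in WT and had the smallest p of the group (edgeR unadjusted p = 0.0631, adjusted p = 0.499). Snap25, the membrane partner of syntaxin, measured 269 to 299 CPM in KO and 243 to 311 in WT.

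Stx1a (ENSMUSG00000007207, chr5:135023482-135051100), which encodes syntaxin-1A, varied most between libraries of all members. It measured 58.0, 143, 179 and 208 CPM in KO1 to KO4 and 52.7, 159, 203 and 137 CPM in WT1 to WT4. KO1 and WT1 held the lowest levels by a wide margin and KO4 and WT3 the highest, and the highest library had 3.94 times the CPM of the lowest. Because both genotypes contained such a library, the means were close, at 147 ± 65.0 CPM over the 4 KO libraries and 138 ± 63.2 CPM over the 4 WT libraries (± SD), and the 95% interval of the log2 fold change, with the surrogate variable in the model, ran from -0.04 to 0.29. Without it, the interval ran from -0.94 to 1.06.

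Complexins bind the assembled SNARE complex. Cplx2 (ENSMUSG00000025867, chr13:54301964-54383923) had the highest estimate of all members and was picked out after its values were seen. It measured 205, 304, 318 and 301 CPM in KO1 to KO4 and 178, 217, 379.6 and 205 CPM in WT1 to WT4. KO2, KO3 and KO4 lay above WT1, WT2 and WT4, and WT3 lay above all of them. The log2 fold change was 0.21 ± 0.139 (SE; 95% interval -0.11 to 0.52; edgeR adjusted p = 0.614), and it was -0.15 in lane A alone and 0.49 in lane B alone.

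Cplx1 (ENSMUSG00000033615, chr5:108518554-108550027) had a similar pattern over libraries and was also picked out after its values were seen. It measured 90.9, 114, 123 and 125 CPM in KO1 to KO4 and 70.1, 91.4, 171 and 84.3 CPM in WT1 to WT4. For Cplx1, KO1 lay above WT4, whereas for Cplx2, KO1 and WT1 were the lowest libraries. WT3 was again the highest library. The log2 fold change was 0.15 (adjusted p = 0.777) with all libraries and 0.37 (adjusted p = 0.0375) without WT3.

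Which members passed an unadjusted p under 0.05 changed with the library left out. Without KO1, Syn2 was higher, against 3.57% of all genes tested in that fit, and without WT1 Syn2 and Stx1a were, against 2.46%. Without WT2, Syt7 was higher, against 4.04%, and without WT4 there were 6 lower members, against 6.29%. Without WT3, 4 members were lower (Syn3, Sv2b, Pclo and Slc17a7), against 8.63% of all genes tested in that fit, and 9 members had an unadjusted p under 0.05 and were higher in KO (Syn1, Vamp1, Vamp2, Cplx1, Cplx2, Rab3a, Napb, Sh3gl2 and Slc17a6), 9 of 34 against 6.93% of all genes tested in that fit. With WT3 kept and a second surrogate variable in the model, 6 of these 9 (Syn1, Vamp2, Cplx1, Cplx2, Rab3a and Sh3gl2) were also higher at an unadjusted p under 0.05, against 5.64% of all tested genes, and 2 (Syn3 and Pclo) were lower, against 6.43%. Without WT3, Cplx1 was called, as were 0.554% of all genes in that fit. CPM then did not overlap between genotypes in 4 members, Vamp1, Vamp2 and Sh3gl2 with KO above WT and Sv2b with KO below, against 5.91% of all tested genes. In lane B alone (KO2, KO3, WT2 and WT4, with no surrogate variable), Cplx2 was called (adjusted p = 0.0323), as were 0.588% of the genes tested there, and 18 of 34 members did not overlap, against 42.8% of all tested genes with so few libraries. In lane A alone no gene was called, members included, so its count of called members carries no information.

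The SNARE complex is disassembled by NSF, an ATPase, with beta-SNAP, encoded by Napb. Nsf measured 156 to 197 CPM in KO and 160.5 to 199 in WT, and its 95% interval of -0.16 to 0.11 was among the narrowest. Napb measured 195 to 255 CPM in KO and 174 to 239 in WT (adjusted p = 0.957).

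Among the endocytic genes, log2 fold changes were below 0 in 2 and above 0 in 2 of the 4, with a median of 0.02. The median ran from -0.0271 to 0.0517 with each library left out in turn. With the surrogate variable each 95% interval lay within 0.5 of 0. Without it, that of Dnm1 ran from -0.55 to 0.54. Dnm1, encoding the fission GTPase dynamin-1, measured 132, 192, 227 and 230.3 CPM in KO1 to KO4 and 117, 209, 249.5 and 192 CPM in WT1 to WT4, with KO1 and WT1 the lowest. Amph (amphiphysin, which recruits dynamin) measured 155 to 189 CPM in KO and 161 to 178 in WT, and Synj1 (synaptojanin-1, a phosphoinositide phosphatase that sheds the clathrin coat) 277 to 318 in KO and 280.4 to 335 in WT. Sh3gl2 (endophilin A1, which bends the membrane) measured 154, 161, 156 and 154 CPM in KO1 to KO4 and 139, 119, 164 and 131 CPM in WT1 to WT4. The 4 KO libraries of Sh3gl2 lay together above WT1, WT2 and WT4 and below WT3, with an adjusted p of 0.583.

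Compared per length of exon, the members spanned a wide range of levels. The highest was Syt4 with 362 ± 52.2 CPM per kb (mean ± SD over 8 libraries), followed by Syt11 with 171 ± 17.2, Syp with 120.3 ± 10.6, Vamp2 with 105 ± 14.8, Sv2a with 97.2 ± 16.5 and Syt1 with 91.4 ± 18.2. The lowest were Slc17a6 with 4.92 ± 2.27 CPM per kb, Syn3 with 3.81 ± 0.813, Sv2c with 2.95 ± 0.453, Vamp1 with 1.40 ± 0.155 and Syt2 with 0.183 ± 0.0563. The forms known from the forebrain (Syt1, Vamp2, Sv2a) were thus far above their relatives known from brainstem, spinal cord or basal ganglia (Syt2, Vamp1, Sv2c) in every library. In the middle of the order, neighbours from Syn1 at 55.6 to Snap25 at 41.2 CPM per kb differed by less than the larger of their SDs, whereas Snap25 (41.2 ± 3.02) and the next, Synj1 (37.0 ± 2.40), differed by more. The active zone scaffolds followed, with Erc2 at 34.7, Pclo at 20.5 and Bsn at 16.5 CPM per kb, and Rims1 and Rims2 at 16.2 and 9.81. Lengths were those of the union of annotated exons, which can exceed the transcript made by the cell.

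**Figure D3:**
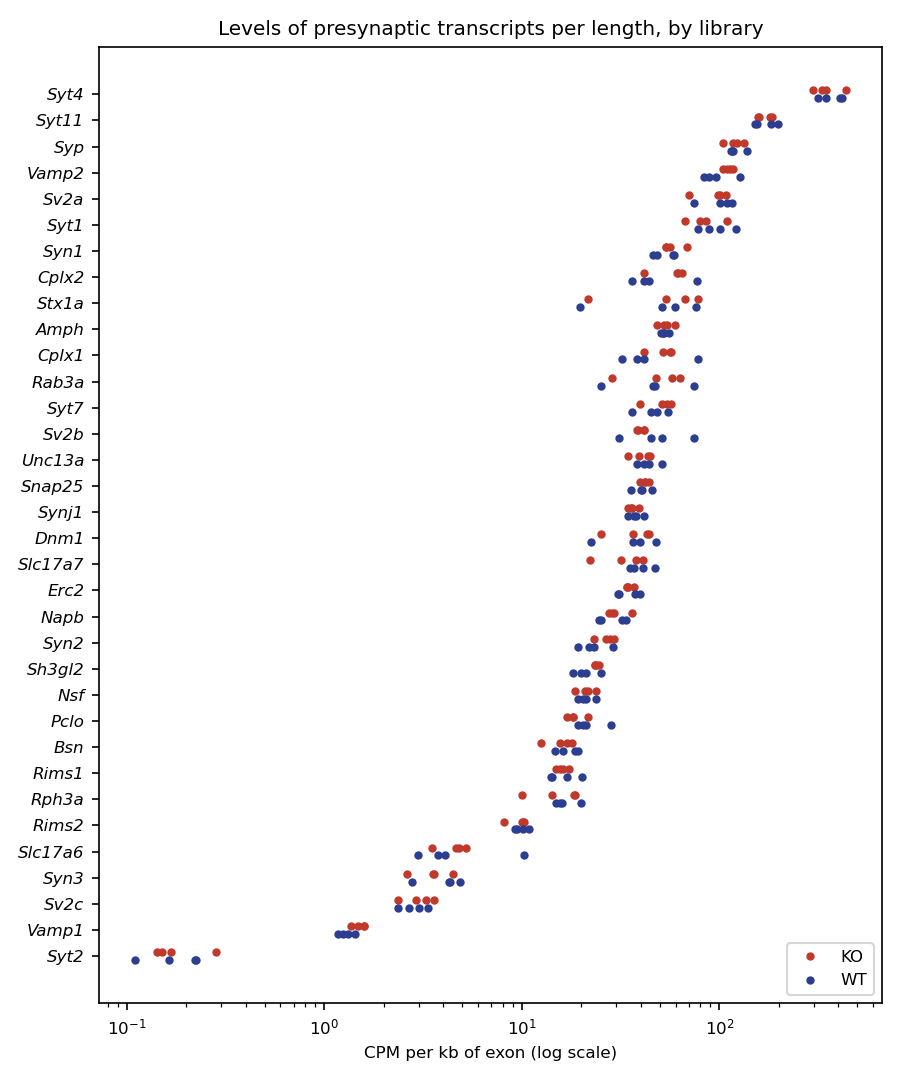
Level of each transcript in CPM per kb of exon (log axis), with 1 point per library, KO in red and WT in blue, in order of the mean over 8 libraries. Syt4 lies at the top with 362 and Syt2 at the bottom with 0.183, and the colours are mixed along most rows.

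For many members the differences between libraries followed the pair KO1 and WT1. In 10 members (Syn3, Syt7, Sv2a, Stx1a, Cplx2, Unc13a, Bsn, Rab3a, Nsf and Dnm1) both libraries lay below all the others, and in 7 (Syn1, Syt1, Syt4, Rims2, Pclo, Napb and Synj1) both lay above. These shares, 29.4% and 20.6%, were near those of all tested genes, 28.8% and 20.5%. The highest library had at least 2 times the CPM of the lowest in 9 members (26.5%), Stx1a, Slc17a6, Rab3a, Syt2, Cplx1, Sv2b, Dnm1, Cplx2 and Slc17a7, against 39.7% of all tested genes. Amph, Synj1, Nsf, Snap25 and Erc2 were the steadiest, with a highest library at most 1.29 times the lowest.

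The members below in KO1 and WT1 had a median GC content of 55.4% in their longest transcript, those in between 51.0% and those above 45.8%. Over all tested genes with a transcript (83.8%), the same medians were 56.0%, 49.2% and 43.8%. The part of base composition in these differences was not tested.

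**Figure D4:**
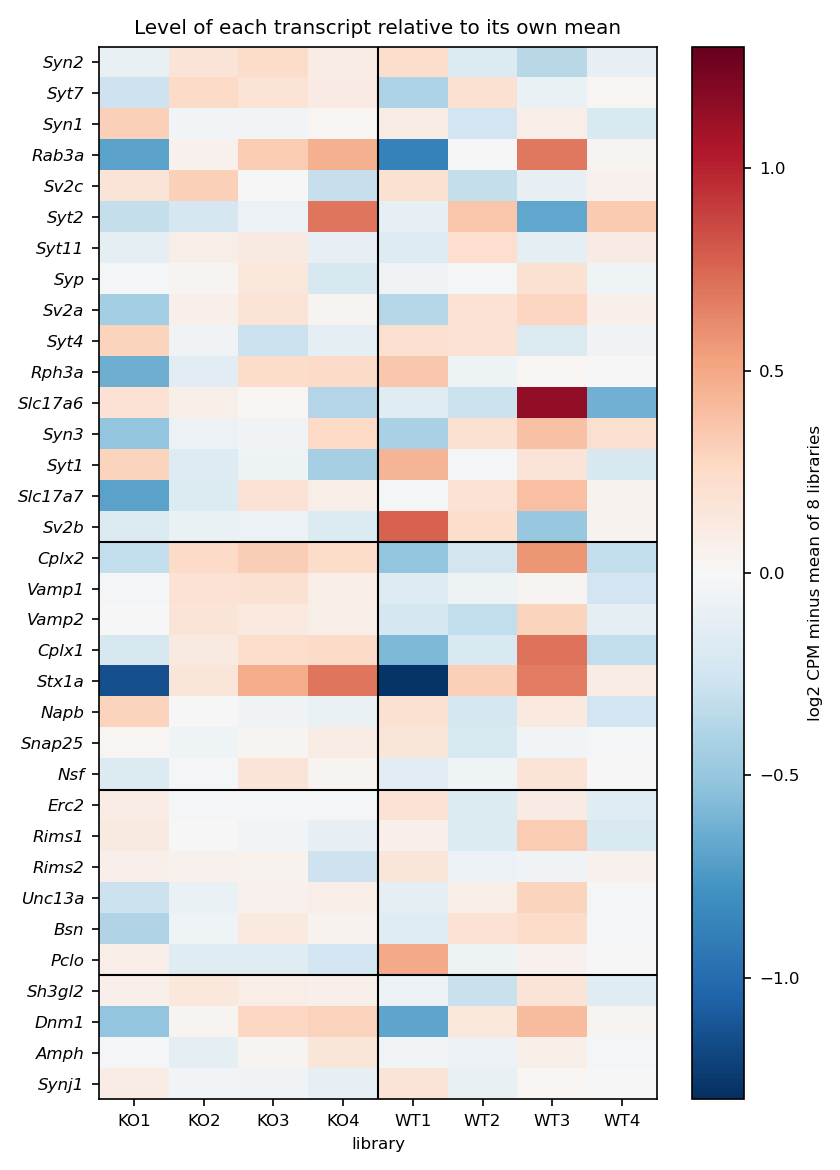
Log2 CPM of each transcript in each library minus its own mean over the 8 libraries, with horizontal lines between vesicle, SNARE, active zone and endocytosis genes and a vertical line between KO and WT. Columns KO1 and WT1 share dark blue cells for Stx1a, Rab3a and Dnm1, and WT3 holds the reddest cell, for Slc17a6.

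Ratios of related transcripts within a library do not depend on its total and were compared for 11 pairs of paralogues. No pair passed the threshold in a two-sided exact permutation test over 70 arrangements, with a lowest p of 0.314 and a BH-adjusted p of 0.83 for each (n = 4 per genotype, smallest possible p 0.0286). The log2 ratio of Slc17a7 to Slc17a6 was 1.53, 2.17, 2.58 and 2.88 in KO1 to KO4 and 2.55, 2.88, 1.65 and 3.09 in WT1 to WT4. On counts, not corrected for length, Slc17a7 exceeded Slc17a6 in every library, least in KO1 and WT3. The mean difference, KO minus WT, was -0.25, and it was -0.00178 without KO1 and -0.55 without WT3.

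The log2 ratio of Syn2 to Syn3 was 1.82 ± 0.248 in KO and 1.43 ± 0.595 in WT (SD, n = 4 each), with the largest difference of the 11 pairs, 0.39 (exact permutation p = 0.314), which was 0.67 without WT1 and 0.21 without WT3. It was highest in WT1 at 2.27 and lowest in WT3 at 0.88, so the WT libraries enclosed the KO libraries. Syn1 and Syn2 were present at 1.07 to 1.754 counts of Syn1 per count of Syn2, with KO1 and WT3 above 1.70 and the other libraries at 1.22 or less. The log2 ratio of Sv2a to Sv2b ran from -0.31 in WT1 to 1.61 in WT3.

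Vamp2 had 27.3 to 38.7 counts for each count of Vamp1, and Syt1 283 to 1101 for each of Syt2. The ratio of Cplx2 to Cplx1 was the steadiest, between 2.21 and 2.67 in all 8 libraries, with a mean log2 ratio of 1.31 ± 0.11 in KO and 1.25 ± 0.0834 in WT, even though both complexins varied by more than 2 times. The ratio of Rims1 to Rims2 lay between 1.84 and 2.87. Bsn to Pclo lay between 0.402 and 0.774, with KO1 and WT1 the only libraries below 0.50.

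**Figure D5:**
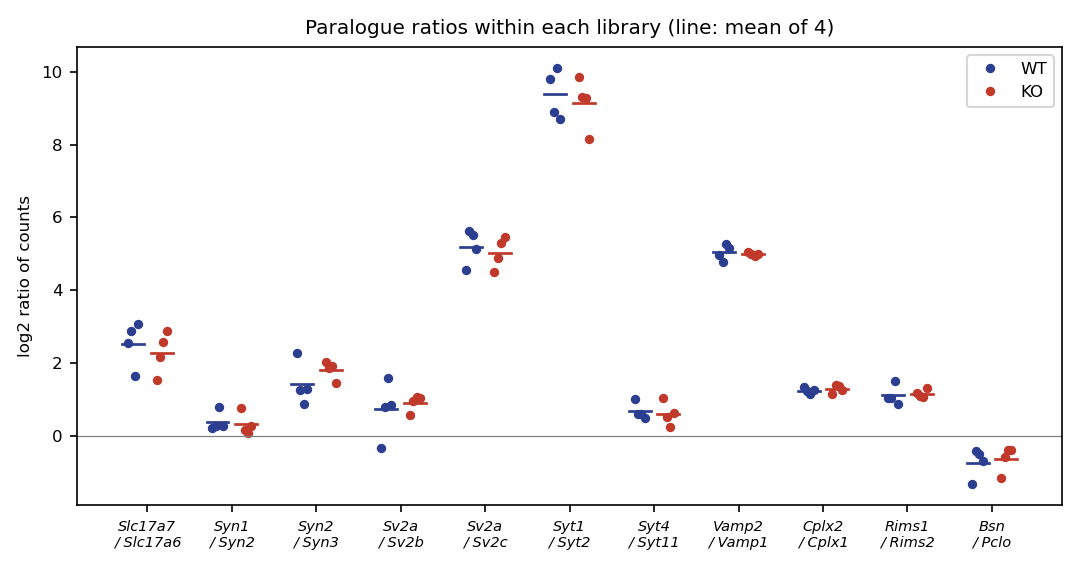
Log2 ratio of counts for 11 pairs of related transcripts in each library, WT in blue and KO in red, with a line at the mean of 4. The genotypes overlap for every pair, Syt1 over Syt2 is the highest ratio and Bsn over Pclo the only one below 0 in all libraries.

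Other presynaptic genes outside the 34 were read in the same way. Of 74 further genes listed by name, 71 were tested, 0 were called, 5 had an unadjusted p under 0.05 and were lower in KO, against 5.75% of all tested genes, 3 were higher, against 4.87%, and their median log2 fold change was -0.03. The smallest p belonged to Unc13c, a Munc13 form best known from the cerebellum, at 1.72 to 3.36 CPM in KO and 3.62 to 6.40 in WT (log2 fold change -0.88 ± 0.248, SE; edgeR adjusted p = 0.333). Its genotypes did not overlap, at a very low level. Rab3b, a relative of Rab3a, followed with 0.23 ± 0.07 (SE; adjusted p = 0.349), then Syt10 with -0.63 ± 0.199 (SE; adjusted p = 0.365) and Syt5 with -0.22 ± 0.0712 (SE; adjusted p = 0.366), and each of these overlapped between genotypes.

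None of the listed markers of other cells was called. The 10 microglial markers summed to 28.2, 55.0, 74.0 and 16.6 CPM in KO1 to KO4 and 26.6, 25.1, 22.3 and 40.6 CPM in WT1 to WT4, and 8 of 9 tested were above 0 with a median log2 fold change of 1.34. KO2 and KO3 held the most. The 10 astrocyte markers summed to 1068 to 1986 CPM in KO and 1105 to 1689 in WT, and WT3 and KO4 held the least. The 12 interneuron markers, which bear on terminals that release GABA, summed to 459 to 699 CPM in KO and 473 to 642 in WT, with a median log2 fold change of 0.25. The part of these cells in the presynaptic values was not tested.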

How the data were processed

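Poly-A RNA of 8 neuronal cultures was prepared with a strand-marking kit and sequenced. The authors deposited untransformed counts of reads for each Ensembl gene. Per the study's methods and the submitters' processing notes, the authors trimmed reads with cutadapt 1.10, removed reads shorter than 40 bases and ribosomal reads, aligned the rest to mm10 with STAR 2.5.3a and counted uniquely aligned reads with HTSeq 0.6.1p1 in union mode on Ensembl release 92, without pooling replicates. The notes also name bcl2fastq 2.17.1.14 and Bowtie2 2.2.8. The strand setting was not stated, and labels and methods disagree on read layout and instrument. Discarding reads with several alignments takes reads from near-identical gene copies, and union mode leaves reads over several genes uncounted.

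Of 32726 identifiers, 23260 matched a symbol. Groups and replicate numbers came from the labels. The test was edgeR 4.0.16 (R 4.3.3): filterByExpr by genotype left 16272 genes, TMM scaled the libraries, and genotype was tested by the quasi-likelihood F test with robust fitting and 1 surrogate variable from svaseq (sva 3.50.0; 1 estimated, at most 2 allowed), after the study's use of surrogate variables. The authors' weighting of p-values was not used. BH adjustment ran over all tested genes, with a threshold of 0.05. The SE is the absolute log2 fold change over the square root of F, and 95% intervals use the t distribution with the model's degrees of freedom. CPM divides by the library total. Levels per kb use the union of exons in GENCODE vM1, an annotation of an older build used for lengths, transcript GC content (longest transcript) and gene overlaps only. Gene positions are from RefSeq on GRCm38. Log2 ratios of counts added 0.5 to each count and were tested by a two-sided exact permutation test over libraries. The procedure was tested on simulated data.

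By rule, fold changes were given for members with an unadjusted p under 0.05 or without overlap between genotypes, for Nuak1, and for the 4 other presynaptic genes with the smallest p. Those of Slc17a6, Sv2b, Cplx1, Cplx2 and Syt1 were added after their values were seen. The members, the list of 74 other presynaptic genes and the 9 marker lists were chosen with earlier results of these data known, so no list was tested as a set. Alternatives covered the surrogate variables, lane, strain label or replicate number as a term, RLE size factors, filters, DESeq2 1.42.0, limma-voom 3.58.1, each lane alone, the pair KO1 and WT1 left out, and each library left out in turn.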

Additional observations from a re-analysis of the deposited data

Results flagged for a closer look

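Of 96 groups of 4 libraries examined, 9 held a library far from the other 3 of its genotype, where chance gives about 1 in 20 groups, or 4.8. The groups come from the same libraries and the ratios reuse member counts. They are therefore not independent, and 4.8 is only a rough guide. KO1 gave 3 of the 9. Its Syn1 level was 226 CPM against 178 to 185 CPM in the other KO libraries, its Erc2 level was 238 CPM against 217 to 220.2 CPM, and its Cplx2 level was 205 CPM against 301 to 318 CPM. WT3 gave 3 more. Its Slc17a6 level was 44.2 CPM where the remaining WT cultures had 12.8 to 17.7 CPM, its Syp level was 715 CPM against 599 to 612 CPM, and its log2 ratio of Syn1 to Syn2 was 0.81 against 0.24 to 0.29. Rims2 in KO4 was at 43.7 CPM against 54.4 to 55.4 CPM in the other KO libraries. Ddx3y, a gene of the Y chromosome, was at 80.4 CPM in KO3 and 85.8 CPM in WT4, against at most 0.0839 CPM elsewhere, so each genotype held 1 such library.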

How the results depend on the processing

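No alternative called more than 1 member. Without a surrogate variable, 4 genes were called in all and 0 members had an unadjusted p under 0.05 lower in KO; these were 4 and 0 with lane as a term, 1 and 0 with strain label, and 0 and 0 in lane A alone. In these 4 fits 269 (1.65%), 285, 232 (1.43%) and 75 (0.462%) of all tested genes were lower at that p. Strain label also gave a median of -0.0129 for the active zone and 0.189 for endocytosis and turned Syn3 to 0.0428, and lane A alone gave -0.21 for the active zone. With 2 surrogate variables, 4 genes were called and 6 members were higher at an unadjusted p under 0.05, as were 5.64% of all genes in that fit. The unfiltered fit called 45 genes and put 5 members lower (3.78% of all genes), and DESeq2 called 168 genes and 1 member (Pclo) and put 5 lower (5.84% of all). Lane B alone called 99 genes and 1 member (Cplx2) and put 6 higher and 4 lower (5.6% of all in each direction). Without the pair KO1 and WT1, 3 genes were called, 1 member was lower (2.45% of all) and 1 higher (1.6% of all). CPM did not overlap for 2 members in lane A, 18 in lane B and 3 without the pair, against 16.8%, 42.8% and 10.2% of all tested genes.

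With each library left out in turn, 3 to 91 genes and 0 to 1 members were called, 1 to 6 members were lower and 0 to 9 higher at an unadjusted p under 0.05, and 0 to 4 did not overlap. WT3 gave 91, 1 (Cplx1), 9 higher (6.93% of all genes) and 4 without overlap (5.91%), WT1 gave the 1 lower (2.99%) and WT4 the 6 lower (6.29%). The cause was not tested.

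Of 143 alternatives of the log2 ratios, KO minus WT, 22 changed sign. A p under 0.05 was out of reach with each lane alone, without the pair and in the sign-flip test of the replicate block, and TMM scaling cannot change a ratio within a library, so the p values of these alternatives say nothing on stability. Slc17a7 to Slc17a6 became 0.10 in lane A and 0.0018 without the pair, Syn1 to Syn2 0.00923 in lane A, Sv2a to Sv2b -0.0495 without the pair, Syt1 to Syt2 0.49 in lane B, Syt4 to Syt11 0.029 in lane A, Vamp2 to Vamp1 0.0146 in lane B, Cplx2 to Cplx1 -0.0276 and Rims1 to Rims2 -0.0333 in lane A. With single libraries left out, the ranges were -0.552 to -0.00178 for Slc17a7 to Slc17a6, 0.207 to 0.672 for Syn2 to Syn3, 0.0149 to 0.0966 for Cplx2 to Cplx1, -0.222 to 0.0626 for Syn1 to Syn2, -0.16 to 0.47 for Sv2a to Sv2b, -0.385 to 0.00799 for Sv2a to Sv2c, -0.47 to 0.10 for Syt1 to Syt2, -0.215 to 0.0501 for Syt4 to Syt11, -0.125 to 0.0421 for Vamp2 to Vamp1, -0.0428 to 0.17 for Rims1 to Rims2 and -0.0868 to 0.286 for Bsn to Pclo.

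The replicate block, in place of the surrogate variable, called 3 genes and no member, and put Syt1 (edgeR adjusted p = 0.652) in place of Syn3 (edgeR adjusted p = 0.706) beside Pclo and Slc17a7 under an unadjusted p of 0.05. Same-numbered libraries correlated at 0.872, 0.0538, 0.338 and 0.11 in their deviations from the group means, and not every library correlated best with its own number, so the numbers were not taken as pairs. RLE size factors, the stricter filter and limma-voom put the same 3 members under an unadjusted p of 0.05. Syt2 and Slc17a6 were limited by depth and spread.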

Other observations

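Across the marker lists of cell types, unadjusted p under 0.05 was reached by 1 interneuron marker, 2 progenitor markers and 1 oligodendrocyte marker, all higher in KO, and by no marker of the other lists, and no marker was called with edgeR. The median log2 fold change was -0.01 over 9 tested pan-neuronal markers, 0.02 over 8 glutamatergic markers, 0.05 over 9 immature neuron markers (such as Dcx and Sox11), 0.08 over 10 astrocyte markers, 0.05 over 10 progenitor markers, 0.02 over 9 oligodendrocyte markers and -0.04 over 7 endothelial and fibroblast markers. Immature neuron markers summed to 7262 to 8733 CPM over the KO and 7310 to 7961 over the WT libraries. Progenitor markers summed to 376 to 468 CPM over the KO and 283 to 390.2 over the WT libraries, with WT3 the lowest library, and oligodendrocyte markers to 532 to 631 CPM over the KO and 508 to 609 over the WT libraries, again with WT3 the lowest. Gfap, the intermediate filament of astrocytes, spanned 7.12 to 235 CPM over the KO and 9.90 to 56.7 over the WT libraries, and among the KO libraries KO4 was the lowest and KO3 the highest. Among the microglial markers, P2ry12 was below the filter on low counts.

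Opposite-strand genes covered part of the exons of several members besides Syn3. The covered share of exonic bases was 16.8% for Syp, 14.7% for Syt4, 11.4% for Bsn and 5.51% for Syt7, and under 2% for Syn1, Sv2b, Rab3a and Synj1. The limit given for Syn3 applies to these stretches too.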
